A study of Mus musculus with 30 samples.

Results

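The comparison described here sets bone marrow derived dendritic cells (BMDCs) lacking Nlrx1 at 3 h after challenge with the mould Aspergillus fumigatus against the same kind of cells before challenge (0 h). It was drawn from the sample labels and takes 6 of the series' 30 libraries, with 3 in each group, and all genes of the deposited count table. Marrow from the tibia and femur of Nlrx1 deficient mice (KO) or wild-type mice (WT) was grown for 6 days with GM-CSF, a cytokine under which myeloid precursors become dendritic cells, and all groups were plated alike at 500000 cells per well. The KO 3 h group received viable conidia (spores) of the isolate AF29, 500000 per well, and the KO 0 h group is its state prior to challenge. The WT 3 h and WT 0 h groups, used beside them, differ only in genotype by the labels. RNA was read by poly(A)-selected, strand-specific sequencing. The sources used here give neither the strain, sex and age of the mice nor the deleted part of Nlrx1. They also do not say that replicate libraries came from different animals or cultures, and p-values therefore measure only the scatter of these libraries, which could be technical. No unchallenged culture at 3 h was among the samples, so an effect of the conidia and an effect of time in the well cannot be told apart.

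Resting conidia carry a coat that hides the glucans of the fungal wall, and they are taken up by phagocytes before they swell and germinate. Dendritic cells sense the exposed wall through the receptor Dectin-1, encoded by Clec7a, and through Toll-like receptors, and the signals reach immediate early transcription factors, NF-kappaB, cytokine genes and the genes of migration to lymph nodes. Nlrx1 is a NOD-like receptor family protein of mitochondria, known as a regulator of antiviral and NF-kappaB signalling and of mitochondrial reactive oxygen.

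The 6 libraries held 1973232 to 2803142 counts, within the range of 1722384 to 3509429 over all 30. Nlrx1 (ENSMUSG00000032109, chromosome 9, 44252717 to 44268599, GRCm38) had 12, 4 and 3 counts in the KO 3 h libraries, against 2, 7 and 5 in the KO 0 h libraries. The WT 3 h libraries held 22, 16 and 13 counts, against 38, 19 and 24 in the WT 0 h libraries. At 3 h KO was below WT by a log2 difference of -1.68 ± 0.65 that did not pass the test (adjusted p = 0.128), and at 0 h the difference was -2.36 ± 0.65 (adjusted p = 0.0326). Within KO cells Nlrx1 differed by 0.30 ± 0.80 between 3 h and 0 h (adjusted p = 0.984). Expression levels below are CPM, counts scaled to a common library total, and describe 1 gene across samples, since they are not per length. Log2 changes are KO 3 h minus KO 0 h ± standard error, and p-values are from edgeR's quasi-likelihood test, adjusted by Benjamini-Hochberg over all genes tested. The standard error was derived as the absolute log2 change divided by the square root of that test's F statistic, so it is approximate for genes of few counts.

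A small set of genes had changed by 3 h, and most of it had risen. Of 12393 genes tested 151 passed an adjusted p of 0.05 (1.22%), 128 of them higher (1.03%) and 23 lower (0.186%) at 3 h. At least 2-fold changes were found for 27 genes that rose and for 1 gene that fell (Sh3bp1, whose counts are shared with an overlapping gene). Protein-coding genes accounted for 125 of the rises and for all 23 falls. The median log2 change of all genes tested was 0.0042, and 1792 genes (14.5%) had no overlap between the 3 and 3 libraries. Fitting the 6 KO libraries alone gave 27 calls (23 rises and 4 falls), of which 23 were shared with the 151, and fitting without a filter on low counts gave 60 calls (55 rises and 5 falls). Of 101 called genes that were followed through the alternatives, 52 passed with any 1 of the 6 libraries left out, and 19 passed under every alternative setting, namely Fnip2, Plk2, Hmox1, Sgk1, Slamf7, Lhfpl2, Plekhm1, Ifrd1, Tent5c, Jun, Mreg, Dusp1, Gem, Nr4a3, Egln3, Cxcl2, Inhba, Sqstm1 and Acod1. Fnip2, Ifrd1, Irak2, Gabarapl1, Mxd1, Slc7a11, Ccdc47, Nop58 and Sh3bp1 overlap, on the same strand, another annotated gene with at least 30 counts over all libraries, so reads there can be assigned to either. Fnip1, Slamf7, Epc1, Nceh1 and Klf7 overlap 1 such gene with fewer counts. The partner of Fnip2, Gm3513, held at most 2.87 CPM in the 6 libraries, and the pair of Sh3bp1 is given with its values below. In bulk RNA, a change in the number of cells of a kind and a change in RNA per cell cannot be told apart.

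**Figure D1:**
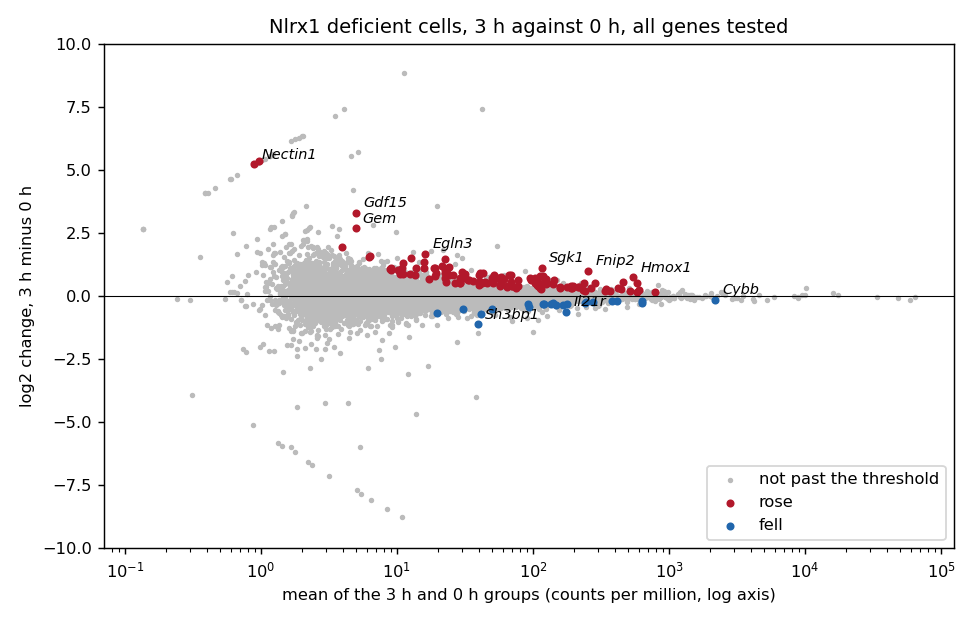
Log2 change in Nlrx1 deficient cells, 3 h minus 0 h (vertical axis), against the mean level of both groups in CPM on a log axis (horizontal), for 12379 of the 12393 genes tested, since 14 had no count in these 6 libraries. Each point is a gene, coloured where it rose (128) or fell (23) past the threshold, and the rises reach further from 0 than the falls. The fitted change of Nectin1, which had no count at 0 h, depends on the prior count.

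The smallest p-value was that of Fnip2. Fnip2 (ENSMUSG00000061175, chromosome 3, 79455974 to 79567796), which encodes a partner of the tumour suppressor folliculin, had 348, 325 and 347 CPM in the KO 3 h libraries, against 170.2, 171 and 165 CPM in the KO 0 h libraries. All 3 libraries at 3 h lay far above all 3 at 0 h, a log2 change of 1.01 ± 0.07 (adjusted p = 2.71e-09). Sgk1, a kinase gene that responds fast to serum, glucocorticoids and osmotic stress, had 149, 157 and 171 CPM in KO cells at 3 h and 66.6, 68.6 and 83.03 CPM in KO cells at 0 h. The groups were again wide apart, with a change of 1.13 ± 0.10 (adjusted p = 2.37e-08). Slamf7, a receptor gene of the SLAM family, averaged 85.7 ± 4.02 CPM at 3 h and 47.5 ± 4.35 CPM at 0 h and changed by 0.85 ± 0.08 (adjusted p = 4.71e-08). Lhfpl2, a tetraspan membrane protein gene, and Ifrd1, a transcriptional coregulator gene, had no overlap between groups either, with changes of 0.81 ± 0.08 and 0.78 ± 0.09 (adjusted p = 8.23e-08 and 5.38e-06). The 2 largest rises among called genes with a mean of at least 5 CPM at 3 h were of genes close to absent at 0 h. Gdf15 (ENSMUSG00000038508, chromosome 8, 70629393 to 70632456), a secreted stress cytokine of the TGF-beta family, had 6.93, 9.17 and 11.1 CPM in the KO 3 h libraries, against 2.00, 0 and 0.883 CPM in the KO 0 h libraries. One library at 0 h held no count, and the change was 3.31 ± 0.49 (adjusted p = 0.000189). It was 4.32 without KO 0 h replicate 1 and 2.64 without KO 0 h replicate 2, past the threshold in both, and it did not pass in the fit of the 6 KO libraries (adjusted p = 0.0942). Gem (ENSMUSG00000028214, chromosome 4, 11704457 to 11714752), a gene for a Ras-like GTPase that is induced in activated cells, had 7.74, 9.52 and 8.61 CPM in KO cells at 3 h and 1.00, 1.12 and 1.77 CPM in KO cells at 0 h. Every library at 3 h was several-fold above every library at 0 h, with a change of 2.69 ± 0.40 (adjusted p = 0.000189). Nectin1, a cell adhesion molecule gene, and Gm20560, annotated as antisense, were chosen after their values were seen. Both passed the test with no count in any KO 0 h library, at means of 1.78 and 1.95 CPM at 3 h. The sources used here do not give the strand setting of the counting, so reads of Gm20560 and of a gene on the opposite strand cannot be told apart.

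**Figure D2:**
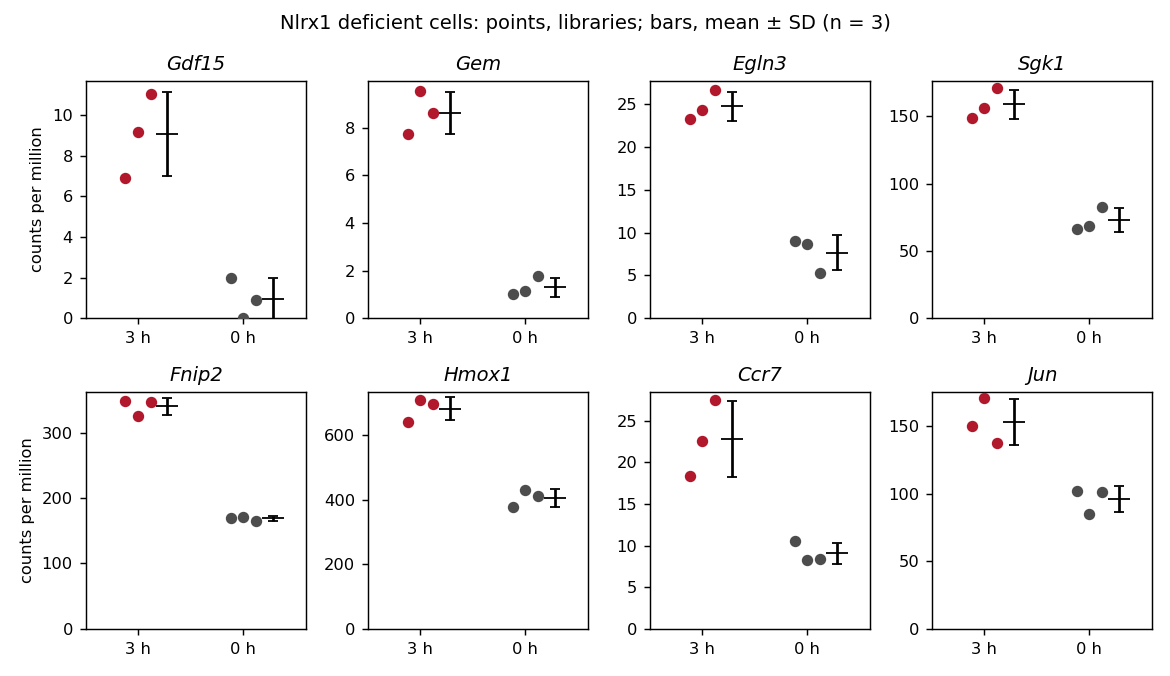
CPM in each library (points) with the group mean ± SD (bars, n = 3) for 8 genes in Nlrx1 deficient cells, 3 h on the left of each panel and 0 h on the right, on axes that start at 0. In every panel the 3 points at 3 h lie above the 3 points at 0 h, with the widest relative gaps for Gdf15 and Gem. Most of these genes were picked among those without overlap, so the separation follows from the choice. Of all genes tested 14.5% had no overlap.

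Immediate early genes are transcribed without new protein, and a list of these and other early response genes had the most calls. Of its members 25% were called, against 1.22% of all genes tested. That last share is the one to set beside every list below. The lists and their members were chosen with earlier results of these data known, so a higher share can follow from the choice. Of 40 listed genes, all tested, 9 rose (Klf6, Ier3, Plk2, Dusp1, Atf3, Gem, Nr4a3, Egr1 and Jun) and 1 fell (Fosl2), with a median log2 change of 0.21. In the fit of the 6 KO libraries 5 of them rose and none fell. Plk2, a polo-like kinase gene induced by growth factors and stress, had 530.3, 575 and 529.7 CPM in the KO 3 h libraries, against 358, 375 and 391 CPM in the KO 0 h libraries. The groups did not overlap and changed by 0.54 ± 0.05 (adjusted p = 1.68e-08). Its promoter is shown because it holds 1 perfect cAMP response element (TGACGTCA, in capitals, beginning 62 bases before the start), the site bound by CREB family factors, which are themselves targets of kinases that respond early. RefSeq gives it on GRCm38.p6, plus strand, at chr13:110394794-110395093.
Plk2: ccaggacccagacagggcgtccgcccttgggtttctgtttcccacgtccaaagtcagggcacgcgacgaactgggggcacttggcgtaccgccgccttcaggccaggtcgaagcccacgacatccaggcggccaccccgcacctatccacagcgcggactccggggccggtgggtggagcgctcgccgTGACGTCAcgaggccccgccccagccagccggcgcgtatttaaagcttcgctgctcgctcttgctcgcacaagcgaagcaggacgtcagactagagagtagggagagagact
The subunits of the AP-1 transcription factor did not move together. Jun had 150.4, 171 and 138 CPM in the KO 3 h libraries, against 102, 85.1 and 101 CPM in the KO 0 h libraries, and the lowest library at 3 h was above the highest at 0 h. Its change was 0.68 ± 0.08 (adjusted p = 1.17e-05). Fos averaged 39.7 ± 6.16 CPM at 3 h and 32.1 ± 3.20 CPM at 0 h and did not pass (0.30 ± 0.13, adjusted p = 0.389). Fosl2, another AP-1 subunit gene, had 137, 155 and 147 CPM in KO cells at 3 h and 176, 189 and 192 CPM in KO cells at 0 h. All 3 libraries at 3 h were below those at 0 h, a change of -0.35 ± 0.07 (adjusted p = 0.00574). Atf3, a stress-induced partner of AP-1, averaged 336 ± 29.8 CPM at 3 h and 235 ± 20.3 CPM at 0 h, a change of 0.52 ± 0.07 (adjusted p = 3.60e-05). Dusp1, the phosphatase that switches MAP kinases off, changed by 0.83 ± 0.12 (adjusted p = 0.000201), and Nr4a3, an orphan nuclear receptor gene, by 0.90 ± 0.16 (adjusted p = 0.00214). Of the families, 1 of 3 Nr4a genes and 1 of 3 Egr genes (Egr1, 0.51 ± 0.11, adjusted p = 0.0139) passed. Among the Gadd45 genes, Gadd45g and Gadd45a passed and Gadd45b did not (0.80 ± 0.22, adjusted p = 0.0686), though its groups did not overlap. Gadd45g and Gadd45a, growth arrest genes induced by stress, changed by 1.30 ± 0.30 and 0.86 ± 0.20 (adjusted p = 0.0259 and 0.0331). Single libraries decided some of these calls. That of Egr1 was lost without KO 3 h replicate 2 (0.105) or KO 0 h replicate 2 or 3, and that of Gadd45g without KO 3 h replicate 2 (0.245) or any KO 0 h library. Of the 6 fits that left a library out, Ier3 passed only without KO 3 h replicate 3 (highest 0.410, without KO 3 h replicate 2) and Gadd45a only without KO 3 h replicate 2 (highest 0.200, without KO 3 h replicate 1). The call of Fosl2 was lost without KO 3 h replicate 1 (0.0583).

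Among inflammatory cytokines and chemokines, 4 of 28 tested genes rose (Cxcl2, Ccl5, Ccl22 and Inhba) and none fell, with a median of 0.14. In the fit of the 6 KO libraries 2 rose. Cxcl2, a chemokine that attracts neutrophils, had 136, 143 and 110.3 CPM in the KO 3 h libraries, against 82.6, 78.7 and 74.2 CPM in the KO 0 h libraries. The libraries at 3 h were all above those at 0 h, with a change of 0.73 ± 0.11 (adjusted p = 0.000430). Inhba, which encodes the activin A subunit, averaged 686 ± 22.6 CPM at 3 h and 474 ± 33.7 CPM at 0 h, a change of 0.53 ± 0.08 (adjusted p = 0.000484). Ccl5, a chemokine for T cells and monocytes, had 22.4, 34.9 and 42.2 CPM in KO cells at 3 h and 15.02, 14.99 and 15.02 CPM in KO cells at 0 h. The libraries at 0 h were nearly alike while those at 3 h spread widely, and the change was 1.14 ± 0.21 (adjusted p = 0.00249). Ccl22, which attracts regulatory T cells, rose by 0.38 ± 0.09 (adjusted p = 0.0353), but its call was lost with any 1 of the 6 libraries left out (highest adjusted p = 0.162, without KO 3 h replicate 3). The other tested members of this list did not pass at this depth. Csf1, a gene of the authors' deposited list, averaged 126 CPM at 3 h and 78.0 CPM at 0 h. Its groups did not overlap, but the change of 0.69 ± 0.21 did not pass (adjusted p = 0.1575). Tnf, the tumour necrosis factor gene, had 84.4, 75.5 and 88.6 CPM in the KO 3 h libraries, against 75.1, 62.6 and 77.3 CPM in the KO 0 h libraries. The groups overlapped, and the change of 0.21 ± 0.11 did not pass (adjusted p = 0.583). Il1b averaged 47.5 ± 1.76 CPM at 3 h and 51.7 ± 3.57 CPM at 0 h (-0.12 ± 0.10, adjusted p = 0.854), and Cxcl1, the close relative of Cxcl2, 5.81 ± 2.58 CPM at 3 h and 3.16 ± 0.193 CPM at 0 h (0.84 ± 0.36, adjusted p = 0.406). Il6 and Il12b stayed below 2 CPM in every library of both groups, too low for a fold to be read.

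Ccrl2, an atypical receptor that presents chemerin, had 29.8, 24.7 and 35.7 CPM in the KO 3 h libraries, against 13.5, 14.6 and 11.04 CPM in the KO 0 h libraries. No library at 0 h reached the level of any at 3 h, a change of 1.19 ± 0.15 (adjusted p = 2.38e-05). Irak2, a kinase gene of Toll-like and interleukin-1 receptor signalling, averaged 41.3 ± 1.18 CPM at 3 h and 22.2 ± 6.34 CPM at 0 h and changed by 0.88 ± 0.19 (adjusted p = 0.0119), with a call that was lost without KO 0 h replicate 1 (adjusted p = 0.0983). Tnfrsf1b, the second receptor for tumour necrosis factor, changed by 0.40 ± 0.07 (adjusted p = 0.000780). Acod1, which makes the antimicrobial metabolite itaconate, averaged 148 ± 5.14 CPM at 3 h and 104 ± 4.45 CPM at 0 h, a change of 0.51 ± 0.10 (adjusted p = 0.00485). Il1f9, an interleukin-1 family cytokine gene (interleukin-36 gamma), changed by 0.71 ± 0.14 (adjusted p = 0.00540), and passed no longer without KO 3 h replicate 1 (0.0502). Irak2, Tnfrsf1b and Il1f9 were picked after their values were seen. Of 28 NF-kappaB subunit and feedback genes only Rel passed, at a list median of 0.09. Rel, the subunit gene c-Rel that drives cytokine genes in dendritic cells, had 72.2, 63.5 and 80.4 CPM in KO cells at 3 h and 49.6, 47.6 and 39.3 CPM in KO cells at 0 h. The groups did not overlap and the change was 0.66 ± 0.09 (adjusted p = 6.75e-05). Nfkbia, the inhibitor gene that NF-kappaB itself induces, averaged 129.7 ± 6.94 CPM at 3 h and 128 ± 3.60 CPM at 0 h (0.02 ± 0.08, adjusted p = 0.988), and Tnfaip3, the A20 brake, 109.7 ± 17.8 CPM at 3 h and 91.6 ± 8.25 CPM at 0 h (0.26 ± 0.17, adjusted p = 0.717).

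Dendritic cell maturation and migration genes had 5 rises among 28 tested (Ccr7, Cacnb3, Fscn1, Cd83 and Ccl22) and no fall, with a median of 0.20. No member passed in the fit of the 6 KO libraries, and 1 rose in the fit without a filter on low counts. Ccr7, the receptor that guides mature dendritic cells to lymph nodes, had 18.3, 22.6 and 27.5 CPM in the KO 3 h libraries, against 10.5, 8.24 and 8.39 CPM in the KO 0 h libraries. All libraries at 3 h were above those at 0 h, with a change of 1.34 ± 0.26 (adjusted p = 0.00451). Fscn1, the actin-bundling protein of mature dendritic cells, had 9.38, 23.6 and 32.0 CPM in KO cells at 3 h and 11.5, 10.1 and 8.39 CPM in KO cells at 0 h. KO 3 h replicate 1 lay within the range at 0 h, the change was 1.12 ± 0.28 (adjusted p = 0.0397), and the call was lost without any of the other 5 libraries (highest adjusted p = 0.339, without KO 3 h replicate 3). Cacnb3, a calcium channel subunit gene used as a maturation marker, changed by 1.12 ± 0.27 (adjusted p = 0.0296), a call lost without KO 3 h replicate 3 (0.223) or KO 0 h replicate 1 or 2. Cd83, a maturation marker of the cell surface, changed by 0.89 ± 0.22 (adjusted p = 0.0454), a call lost without any library but KO 0 h replicate 2 (highest 0.260, without KO 3 h replicate 1). Cd86, the costimulatory ligand, averaged 15.2 ± 0.973 CPM at 3 h and 13.2 ± 3.83 CPM at 0 h and H2-Aa, a class II chain gene, 250.3 ± 11.7 CPM at 3 h and 243 ± 16.7 CPM at 0 h, and neither passed (adjusted p = 0.947 and 0.953). None of 17 antigen presentation genes passed. Beyond the list, Mreg, known from the transport of melanosomes and from phagosome maturation, had 29.8, 33.2 and 35.3 CPM in the KO 3 h libraries, against 15.02, 17.2 and 12.8 CPM in the KO 0 h libraries, with no overlap and a change of 1.11 ± 0.16 (adjusted p = 0.000183). Tent5c, a poly(A) polymerase gene, averaged 32.8 ± 4.68 CPM at 3 h and 12.0 ± 1.25 CPM at 0 h, a change of 1.45 ± 0.18 (adjusted p = 1.17e-05).

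Hypoxia response genes had 3 rises among 22 tested (Egln3, Hilpda and Mxi1), no fall and a median of 0.23, and 1 rise in the fit of the 6 KO libraries. Egln3 (ENSMUSG00000035105, chromosome 12, 54178981 to 54203860) encodes a prolyl hydroxylase that marks hypoxia-inducible factors for decay and is itself one of their targets. It had 23.2, 24.3 and 26.6 CPM in the KO 3 h libraries, against 9.01, 8.62 and 5.30 CPM in the KO 0 h libraries. The groups were far apart, with a change of 1.69 ± 0.22 (adjusted p = 4.40e-05). Its promoter is shown for the core of the hypoxia response element (ACGTG, in capitals), which occurs 1 time, beginning 229 bases before the start. RefSeq gives it on GRCm38.p6, minus strand, at chr12:54203825-54204124, and it is written in the direction of the gene.
Egln3: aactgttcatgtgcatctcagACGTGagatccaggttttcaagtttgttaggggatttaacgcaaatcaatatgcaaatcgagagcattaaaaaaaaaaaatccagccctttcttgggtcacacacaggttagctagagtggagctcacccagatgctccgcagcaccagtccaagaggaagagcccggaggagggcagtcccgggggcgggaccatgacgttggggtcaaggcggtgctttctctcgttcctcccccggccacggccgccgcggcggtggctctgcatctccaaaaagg
Hilpda, a lipid droplet protein induced by hypoxia, averaged 29.2 ± 4.85 CPM at 3 h and 15.7 ± 3.37 CPM at 0 h, a change of 0.91 ± 0.15 (adjusted p = 0.000700). Mxi1, a repressor of Myc targets, rose by 0.55 ± 0.14 (adjusted p = 0.0353), a call lost with any 1 of the 6 libraries left out (highest 0.151, without KO 0 h replicate 3). Mxd1 and Mnt, other repressors that pair with Max and that were picked after their values were seen, changed by 0.93 ± 0.20 and 0.43 ± 0.10 (adjusted p = 0.0140 and 0.0331). That of Mxd1 was lost without KO 0 h replicate 2 (0.0924), KO 0 h replicate 3 or KO 3 h replicate 1, and that of Mnt without KO 0 h replicate 1 (0.236), KO 0 h replicate 2 or KO 3 h replicate 1 or 2. Glycolysis genes had 1 rise among 25 (Pgam1, 0.21 ± 0.05, adjusted p = 0.0146, lost without KO 3 h replicate 2 or 3 or KO 0 h replicate 3, highest 0.102). Ldha, the lactate dehydrogenase gene, had 401, 391 and 445 CPM in KO cells at 3 h and 410.5, 414 and 454 CPM in KO cells at 0 h. These overlapped (-0.05 ± 0.07, adjusted p = 0.951), and Hk2, the inducible hexokinase gene, averaged 240.1 ± 1.78 CPM at 3 h and 217 ± 19.3 CPM at 0 h (0.15 ± 0.06, adjusted p = 0.398).

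Hmox1 (ENSMUSG00000005413, chromosome 8, 75093621 to 75100589), the enzyme that breaks down heme and the best known target of NRF2, had 642, 709 and 697 CPM in the KO 3 h libraries, against 377, 431 and 413 CPM in the KO 0 h libraries. The lowest library at 3 h exceeded the highest at 0 h by far, with a change of 0.74 ± 0.06 (adjusted p = 1.68e-08). Of 28 NRF2 and oxidative defence genes it rose with Sqstm1 and Slc7a11, and none fell, at a median of 0.08. Sqstm1, the autophagy receptor p62, had 275, 286 and 286 CPM in KO cells at 3 h and 193, 187 and 206 CPM in KO cells at 0 h. The groups were separate, with a change of 0.53 ± 0.09 (adjusted p = 0.00138). Slc7a11, the cystine importer, rose by 0.16 ± 0.03 (adjusted p = 0.0134), a call that held in 1 of the 6 fits that left a library out, the one without KO 0 h replicate 1 (highest 0.0995, without KO 0 h replicate 3). Por, the electron donor of Hmox1 and of cytochromes P450, which was picked after its values were seen, changed by 0.44 ± 0.07 (adjusted p = 0.000239). Iron and metal handling genes had 3 rises among 19 (Hmox1, Slc40a1 and Lcn2). Slc40a1, the iron exporter ferroportin, averaged 24.1 ± 2.99 CPM at 3 h and 14.02 ± 1.12 CPM at 0 h and changed by 0.78 ± 0.18 (adjusted p = 0.0246), a call that held only without KO 3 h replicate 2 among the 6 (highest 0.132, without KO 3 h replicate 3).

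Fnip2 rose with its paralogue Fnip1, and several genes of autophagy, lysosomes and lysosomal lipid handling rose too, most of them picked after their values were seen. Folliculin and the Fnip proteins act together at the lysosome surface, where they control the amino acid response and the nuclear entry of TFEB and TFE3, factors that bind the E-box CACGTG in lysosomal genes. Fnip1 had 132, 119 and 123 CPM in the KO 3 h libraries, against 88.6, 78.7 and 91.9 CPM in the KO 0 h libraries. The groups did not overlap and changed by 0.53 ± 0.08 (adjusted p = 0.000285), while Flcn itself averaged 41.8 CPM at 3 h and 30.7 CPM at 0 h and did not pass (0.45 ± 0.13, adjusted p = 0.111). Gla, which encodes the lysosomal alpha-galactosidase, had 57.9, 57.9 and 62.3 CPM in KO cells at 3 h and 39.5, 42.3 and 43.3 CPM in KO cells at 0 h. All libraries at 3 h were higher, a change of 0.51 ± 0.10 (adjusted p = 0.00597). The promoters of Fnip1 and Gla are shown because both hold the E-box (in capitals), 1 time in Fnip1, beginning 75 bases before the start, and 2 times in Gla. In the same window Fnip2, Plekhm1, Rilpl2, Lyst, Tecpr1, Atg2a and Gabarapl1 hold none. RefSeq gives both on GRCm38.p6, Fnip1 on the plus strand at chr11:54437929-54438228 and Gla on the minus strand at chrX:134600956-134601255, each written in the direction of its gene.
Fnip1: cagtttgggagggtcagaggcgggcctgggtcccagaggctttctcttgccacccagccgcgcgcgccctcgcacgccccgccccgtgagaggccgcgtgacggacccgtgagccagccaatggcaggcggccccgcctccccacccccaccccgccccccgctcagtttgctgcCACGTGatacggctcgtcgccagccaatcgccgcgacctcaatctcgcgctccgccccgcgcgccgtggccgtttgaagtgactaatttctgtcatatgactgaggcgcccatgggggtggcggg
Gla: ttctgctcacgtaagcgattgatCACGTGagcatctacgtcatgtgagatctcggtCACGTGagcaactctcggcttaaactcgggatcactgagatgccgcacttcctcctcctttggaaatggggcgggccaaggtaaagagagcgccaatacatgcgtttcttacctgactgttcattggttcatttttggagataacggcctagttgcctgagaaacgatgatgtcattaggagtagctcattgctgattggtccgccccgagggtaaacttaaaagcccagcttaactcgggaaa
Plekhm1, an adaptor for the fusion of autophagosomes with lysosomes, had 129, 116 and 109.9 CPM in the KO 3 h libraries, against 71.1, 73.5 and 69.3 CPM in the KO 0 h libraries. The lowest library at 3 h was well above the highest at 0 h, with a change of 0.73 ± 0.07 (adjusted p = 1.35e-07). Rilpl2, a Rab effector, and Lyst, the lysosomal trafficking regulator lost in Chediak-Higashi syndrome, changed by 0.67 ± 0.10 and 0.39 ± 0.07 (adjusted p = 0.000239 and 0.00197). Tecpr1 and Atg2a, both factors of autophagosome maturation or growth, changed by 0.54 ± 0.11 and 0.85 ± 0.16 (adjusted p = 0.00547 and 0.00370), and these calls were lost without KO 0 h replicate 1 (0.0593) and without KO 0 h replicate 2 (0.0622). Each of the wider families had 1 rise, too few to set against the 1.03% of all genes tested that rose. Of 18 tested genes named Atg, 1 rose (Atg2a), and of 5 LC3 and GABARAP genes, 1 rose (Gabarapl1, 0.75 ± 0.18, adjusted p = 0.0366). Gabarapl1 had 71.7, 73.7 and 73.8 CPM in KO cells at 3 h and 49.1, 22.9 and 60.1 CPM in KO cells at 0 h. KO 0 h replicate 2 was far below its group, the call was lost without that library (0.150), and it held only without KO 0 h replicate 3 among the 6.

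NADPH oxidase and lysosome genes had 2 rises and 1 fall among 31 tested (9.68%, against 1.22% of all genes tested), with a median of 0.01. Atp6v0d2, a subunit of the proton pump that acidifies lysosomes, was the 1 of 15 V-ATPase subunit genes that rose, with 648 ± 12.5 CPM at 3 h and 548 ± 8.08 CPM at 0 h and a change of 0.24 ± 0.04 (adjusted p = 0.000549). Ctsk, the protease cathepsin K, was the 1 of 10 cathepsin genes that rose (0.70 ± 0.15, adjusted p = 0.0136), a call lost without KO 0 h replicate 1 (0.131) or KO 3 h replicate 1 or 3. Cybb, the catalytic subunit of the phagocyte NADPH oxidase, had 2005, 2173 and 2020.4 CPM in the KO 3 h libraries, against 2284, 2364 and 2243 CPM in the KO 0 h libraries. All libraries at 3 h were slightly lower, a change of -0.15 ± 0.04 (adjusted p = 0.0336), and the call held only without KO 3 h replicate 2 among the 6 (highest 0.193, without KO 3 h replicate 1). Cln6, a gene of neuronal ceroid lipofuscinosis, rose by 1.55 ± 0.36 (adjusted p = 0.0238), a call lost without KO 0 h replicate 3 (0.180), KO 0 h replicate 1 or KO 3 h replicate 3.

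Of 20 genes of lipid efflux, lipid storage and PPAR targets, Fabp4 and Fabp5 rose and Msr1 fell, with a median of 0.05. Fabp4, a fatty acid carrier of macrophages and adipocytes, had 17.5, 23.6 and 15.2 CPM in the KO 3 h libraries, against 5.51, 7.12 and 7.07 CPM in the KO 0 h libraries. Each library at 3 h was above all at 0 h, with a change of 1.51 ± 0.21 (adjusted p = 6.75e-05). Fabp5, its epidermal relative, was at a higher CPM and changed by 0.20 ± 0.05 (adjusted p = 0.0331), a call that held only without KO 0 h replicate 1 (highest 0.259, without KO 0 h replicate 3). Msr1, a scavenger receptor for modified lipoproteins, had 585, 557 and 574 CPM in KO cells at 3 h and 679, 706 and 716 CPM in KO cells at 0 h. All libraries at 3 h were lower (-0.29 ± 0.06, adjusted p = 0.0128), and the call was lost without KO 3 h replicate 2 (0.0668) or KO 0 h replicate 3. Nceh1, which hydrolyses cholesterol esters, averaged 145 ± 22.8 CPM at 3 h and 104 ± 3.94 CPM at 0 h, a change of 0.48 ± 0.09 (adjusted p = 0.00283). None of 23 cholesterol synthesis and uptake genes passed, with a median of 0.11.

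Of 26 genes of the unfolded protein and integrated stress response, Gdf15 and Cebpb rose and none fell, with a median of 0.02. Cebpb, a transcription factor gene of macrophage activation, averaged 484 ± 23.9 CPM at 3 h and 396 ± 24.9 CPM at 0 h, a change of 0.29 ± 0.06 (adjusted p = 0.00537) that was lost without KO 0 h replicate 3 (0.0763) or KO 3 h replicate 2. Ppp1r15a, which encodes the GADD34 subunit that ends the integrated stress response, had 45.2, 49.0 and 41.0 CPM in the KO 3 h libraries, against 12.5, 17.2 and 16.8 CPM in the KO 0 h libraries. The groups were far apart. Across the other 24 libraries the gene ran from 10.1 to 99.5 CPM, a range that includes changes over time. Replicates were split in some of these groups, with 10.1, 43.8 and 44.5 CPM at WT 3 h and 46.8, 12.8 and 11.7 CPM at KO 6 h. Ppp1r15a did not pass (1.53 ± 0.50, adjusted p = 0.206), whereas it passed in the fit of the 6 KO libraries (adjusted p = 0.0076). Heat shock genes had 2 rises and 1 fall among 17. Hspa1a and Hspa1b, near-identical copies of the inducible HSP70 gene between which reads may be split, did not overlap between groups. Hspa1a averaged 18.8 ± 0.467 CPM at 3 h and 8.70 ± 0.401 CPM at 0 h, and Hspa1b 17.5 ± 0.827 CPM at 3 h and 9.78 ± 0.309 CPM at 0 h. They changed by 1.11 ± 0.17 and 0.83 ± 0.16 (adjusted p = 0.000216 and 0.0109), and the call of Hspa1b was lost without KO 3 h replicate 3 (0.0614) or KO 0 h replicate 2 or 3. Hsph1, the HSP110 chaperone that works with HSP70, went the other way, with 129, 131 and 126 CPM in KO cells at 3 h and 167, 171 and 156 CPM in KO cells at 0 h. The groups were separate, a change of -0.36 ± 0.07 (adjusted p = 0.00252). Among 22 cell death and survival genes Mcl1, a short-lived survival factor of the BCL2 family, was the 1 that passed (0.31 ± 0.06, adjusted p = 0.00358).

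Other genes with no listed pathway rose with changes of similar size, most of them chosen after their values were seen. Epc1, a component of a histone acetyltransferase complex, had 23.6, 35.3 and 31.6 CPM in the KO 3 h libraries, against 9.51, 18.7 and 15.5 CPM in the KO 0 h libraries. The groups did not overlap and the change was 1.03 ± 0.18 (adjusted p = 0.00194). Ahnak2, a large scaffold protein gene, averaged 149 ± 23.9 CPM at 3 h and 93.6 ± 6.46 CPM at 0 h (0.67 ± 0.08, adjusted p = 1.17e-05), and Gas2l3, a cytoskeletal linker gene, 87.8 ± 4.92 CPM at 3 h and 49.98 ± 12.9 CPM at 0 h (0.83 ± 0.11, adjusted p = 8.26e-05). Pmp22, a membrane protein gene best known from myelin, averaged 51.3 ± 4.68 CPM at 3 h and 28.4 ± 4.11 CPM at 0 h (0.85 ± 0.14, adjusted p = 0.000493). Fbxo32, the ubiquitin ligase atrogin-1 and a target of FOXO factors in muscle, had 33.8, 34.2 and 31.6 CPM in KO cells at 3 h and 15.5, 17.2 and 23.0 CPM in KO cells at 0 h. No library at 0 h reached those at 3 h, a change of 0.84 ± 0.15 (adjusted p = 0.00214). Pik3r5, a regulatory subunit of the phosphoinositide kinase downstream of chemokine receptors, changed by 0.49 ± 0.08 (adjusted p = 0.00114), and Ralgds, an exchange factor between Ras and Ral, by 0.65 ± 0.12 (adjusted p = 0.00251). Cxcr4, the receptor for the chemokine CXCL12, averaged 14.7 ± 0.756 CPM at 3 h and 7.09 ± 3.22 CPM at 0 h, a change of 1.09 ± 0.27 (adjusted p = 0.0340) that held only without KO 0 h replicate 1 among the 6 fits that left a library out (highest 0.269, without KO 0 h replicate 2). Ahr, the receptor for aryl hydrocarbons, had 93.3, 92.4 and 82.0 CPM in the KO 3 h libraries, against 71.6, 69.0 and 60.1 CPM in the KO 0 h libraries. The groups were separate, and the change of 0.42 ± 0.09 (adjusted p = 0.0190) was lost without KO 0 h replicate 3 (0.166) or KO 3 h replicate 1 or 2.

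The 23 falls were mostly small. Il21r, the interleukin-21 receptor gene, had 125, 166 and 123 CPM in the KO 3 h libraries, against 208, 219.6 and 206 CPM in the KO 0 h libraries. All libraries at 3 h were lower, with a change of -0.61 ± 0.10 (adjusted p = 0.000377). Tlr8, an endosomal receptor of the Toll-like family, had 31.8, 37.0 and 25.01 CPM in KO cells at 3 h and 53.1, 52.5 and 50.8 CPM in KO cells at 0 h. The libraries at 0 h were tightly grouped and all above those at 3 h, a change of -0.73 ± 0.13 (adjusted p = 0.00149). Ccdc47, an endoplasmic reticulum protein gene, averaged 79.8 ± 1.61 CPM at 3 h and 107 ± 9.10 CPM at 0 h, a change of -0.42 ± 0.08 (adjusted p = 0.00226). Sh3bp1, a GTPase-activating protein for Rac, showed the 1 fall of at least 2-fold, with 13.9, 46.2 and 12.7 CPM in the KO 3 h libraries, against 52.6, 54.7 and 55.6 CPM in the KO 0 h libraries. KO 3 h replicate 2 stood close to the 0 h libraries while replicates 1 and 3 were far lower. Gm49510, which overlaps Sh3bp1 on the same strand, had 32.6, 0 and 35.3 CPM in the KO 3 h libraries and was at 0 in the KO 0 h libraries. The libraries low in Sh3bp1 were thus the ones with counts in Gm49510, and reads of one cannot be told apart from reads of the other. The change was -1.13 ± 0.27 (adjusted p = 0.0366), it was -2.03 without KO 3 h replicate 2, and the call was lost without any other library (highest adjusted p = 0.193, without KO 3 h replicate 1). Mrpl43, a mitochondrial ribosomal protein gene, Nop58, a nucleolar protein gene, Casp8ap2 and the transcription factor gene Klf7 changed by -0.68 ± 0.17, -0.53 ± 0.12, -0.52 ± 0.13 and -0.33 ± 0.08 (adjusted p = 0.0454, 0.0225, 0.0432 and 0.0435). Those of Casp8ap2 and Klf7 were lost with any 1 library left out (highest 0.214, without KO 3 h replicate 3, and 0.199, without KO 3 h replicate 2). That of Mrpl43 held only without KO 3 h replicate 3 or KO 0 h replicate 2 (highest 0.346, without KO 0 h replicate 3), and that of Nop58 only without KO 3 h replicate 2 or KO 0 h replicate 3 (highest 0.127, without KO 3 h replicate 1).

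Fungal recognition and inflammasome genes had a median of 0.02, with 1 rise and 1 fall among 37 (5.41%, against 1.22% of all genes tested). Clec7a, the Dectin-1 gene, had 1341, 1522 and 1481 CPM in the KO 3 h libraries, against 1335, 1466 and 1439 CPM in the KO 0 h libraries. The groups overlapped, with a change of 0.03 ± 0.05 (adjusted p = 0.937). Prkcd, a kinase between Dectin-1 and its adaptor CARD9, averaged 587 ± 19.8 CPM at 3 h and 670.2 ± 29.4 CPM at 0 h, a change of -0.19 ± 0.04 (adjusted p = 0.0102). The call of Prkcd was lost without KO 3 h replicate 3 (0.0766) or KO 0 h replicate 2 or 3. Ptx3, a soluble pattern recognition molecule for conidia, averaged 295 ± 18.6 CPM at 3 h and 337 ± 20.6 CPM at 0 h (-0.19 ± 0.09, adjusted p = 0.461). Mitochondrial antiviral genes and Nlrx1 partners had 1 rise among 25, Sqstm1, at a median of 0.13, and none of the 13 mitochondrially encoded protein genes passed (median -0.04).

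The type I interferon response list had no call among 42 tested genes, at a median of -0.30 and with 8 of the 42 above 0. The mean log2 CPM of the list was 3.56, 3.81 and 3.96 in the KO 3 h libraries, against 3.89, 4.16 and 4.19 in the KO 0 h libraries. These ranges overlapped. In WT the list mean was 3.81, 3.90 and 4.02 at 3 h, against 3.49, 3.55 and 3.39 at 0 h, and the list median change was 0.45, also with no call. Ifit1, an interferon-induced inhibitor of viral RNA translation, had 4.89, 3.53 and 6.15 CPM in the KO 3 h libraries, against 1.502, 9.74 and 6.62 CPM in the KO 0 h libraries. These overlapped widely (-0.36 ± 0.51, adjusted p = 0.942), and Isg15, a ubiquitin-like modifier, averaged 2.81 ± 1.38 CPM at 3 h and 4.58 ± 0.497 CPM at 0 h (-0.69 ± 0.62, adjusted p = 0.867).

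**Figure D3:**
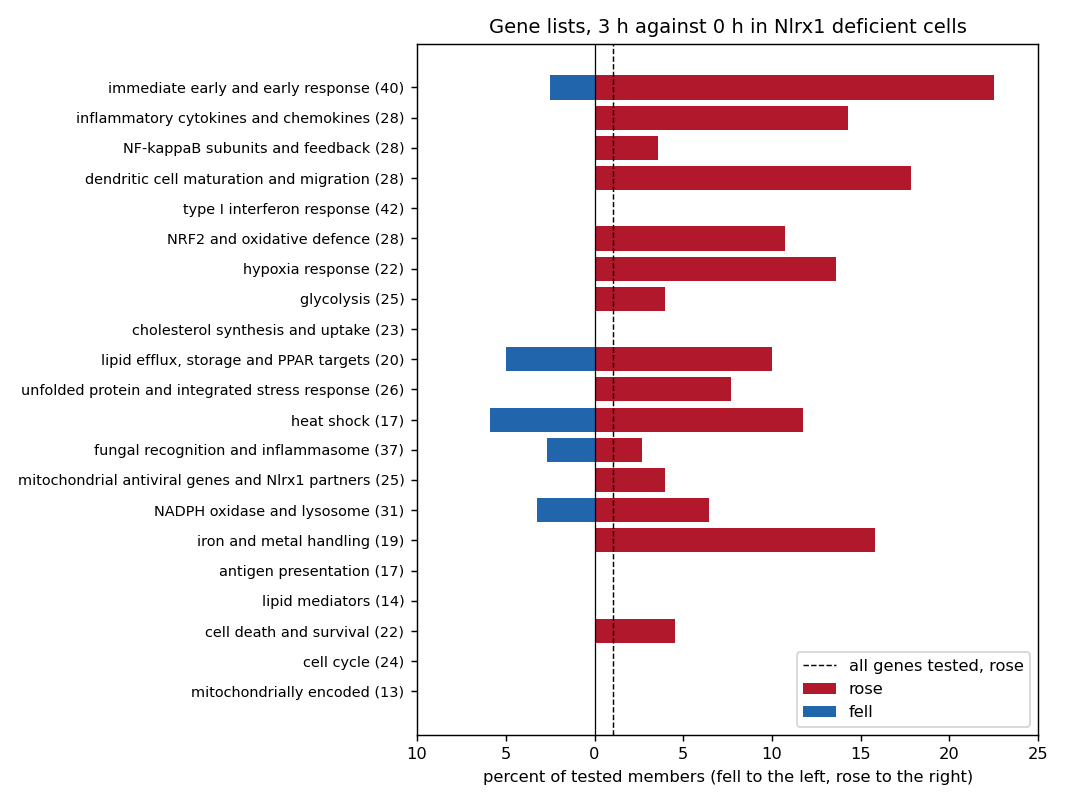
Share of tested members that rose (right) or fell (left) in Nlrx1 deficient cells at 3 h against 0 h, in percent, for the 21 pathway lists, with the number tested in parentheses. The dashed line marks the 1.03% of all genes tested that rose, and the immediate early and early response list reaches furthest, with 9 of 40. The lists were chosen with earlier results of these data known, so shares above the line can follow from the choice.

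Markers of cell types that a GM-CSF culture can hold were read beside these results. Conventional dendritic cell markers summed to 3409 to 3661 CPM in the KO 3 h libraries and to 3351 to 3674 CPM in the KO 0 h libraries, with no call among 13, and macrophage markers to 2388 to 2553 CPM at 3 h and 2594 to 2815 CPM at 0 h, again with no call among 13. Neutrophil markers had 3 rises among 11 tested (Lcn2, S100a8 and S100a9) and a median of 0.50. Their sum was 1454 to 1583 CPM at 3 h and 1334 to 1402 CPM at 0 h, and Elane was at 0 in all 6 libraries. S100a9, a subunit of the antimicrobial calprotectin, had 160.2, 173 and 194 CPM in the KO 3 h libraries, against 117, 98.6 and 119.7 CPM in the KO 0 h libraries. The groups were separate, a change of 0.66 ± 0.13 (adjusted p = 0.00876), and the call was lost without KO 0 h replicate 2 (0.0818) or KO 3 h replicate 3. S100a8, its partner, changed by 0.66 ± 0.14 (adjusted p = 0.0148; highest 0.118, without KO 0 h replicate 2, and lost also without KO 3 h replicate 2 or 3 or KO 0 h replicate 3), and Lcn2, the siderophore-binding lipocalin, by 0.71 ± 0.14 (adjusted p = 0.00526). Their part in the rises of Lcn2, Cxcl2 and other genes was not tested. The 1 tested gene of the T and NK cell list, Il7r, rose by 0.34 ± 0.06 (adjusted p = 0.000736), while Cd4, Trac, Ncr1 and Gzma were at 0. No gene of the plasmacytoid, B cell, mast cell, eosinophil, erythroid or stromal lists passed. Small structural RNAs took 3.62% ± 0.0757 of counts at 3 h and 3.42% ± 0.0774 at 0 h (SD, n = 3; two-sided exact permutation test, p = 0.1, the smallest this design allows), and mitochondrially encoded protein genes took 1.49% and 1.51% (p = 1).

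The letters of 6 factor sites were searched on both strands of promoters of 300 bases, 250 before to 50 after the start, for the named genes, of which 108 of 132 were in the RefSeq table. A named gene counted where any of its listed promoters matched, whereas the shares for all genes tested are per promoter. Genes with several promoters thus had more chances to match, and the shares are not like measures. Among 67 called rises with a promoter the hypoxia response element core ACGTG occurred in 25 (37.3%), and it occurred in 7 of 14 falls (50%), against 26% of the promoters of all genes tested. The E-box CACGTG, which contains ACGTG and so always counts for both, was found in 9 of the 67 rises (13.4%) and in 3 of the 14 falls (21.4%), against 10.1%. The cAMP response element TGACGTCA was found in 3 (4.48%; Dusp1, Fscn1 and Plk2), against 3.15%, and the AP-1 site TGACTCA in 1 (1.49%; Slamf7), against 3.69%. The antioxidant response element core TGACNNNGC was found in 12 (17.9%), against 14.4%, and the C/EBP-ATF element TGATGNAA in 4 (5.97%; Atf3, Cd300lf, Gadd45g and Slc7a11), against 2.29%. A match describes the letters of the window and is no evidence of binding.

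Later samples of the same cells show how the 3 h levels continued, with the KO 0 h libraries shared by all such comparisons. Gem averaged 1.30 ± 0.411, 8.63 ± 0.890, 14.3 ± 3.58, 29.0 ± 3.13 and 104 ± 7.60 CPM at 0, 3, 6, 9 and 12 h (SD, n = 3 each), so that most of its range lay after 9 h. Gdf15 averaged 0.962 ± 1.00, 9.06 ± 2.07, 13.5 ± 1.91, 23.8 ± 3.48 and 32.1 ± 0.218 CPM at these times. Fnip2 averaged 169 ± 3.12, 339.9 ± 13.1, 382 ± 34.0, 393 ± 5.81 and 348 ± 19.9 CPM, with its largest step between 0 h and 3 h. Hmox1 averaged 407 ± 27.6, 683 ± 36.0, 879 ± 59.0, 1232 ± 21.2 and 919.8 ± 20.5 CPM, highest at 9 h. Egln3 averaged 7.64 ± 2.04, 24.7 ± 1.74, 20.9 ± 3.36, 22.0 ± 1.498 and 38.9 ± 4.01 CPM, with similar levels from 3 to 9 h. Jun averaged 95.9 ± 9.42, 153 ± 16.8, 140.2 ± 7.27, 166 ± 12.4 and 209 ± 12.0 CPM and Cxcl2 averaged 78.5 ± 4.20, 129.7 ± 17.1, 148 ± 0.700, 271 ± 41.1 and 687 ± 24.96 CPM, the chemokine with its largest step after 9 h. Tlr8 averaged 52.1 ± 1.18, 31.3 ± 6.03, 24.8 ± 3.10, 32.5 ± 3.37 and 40.4 ± 1.12 CPM, lowest at 6 h. These levels are a description, and no test between the later times was made.

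**Figure D4:**
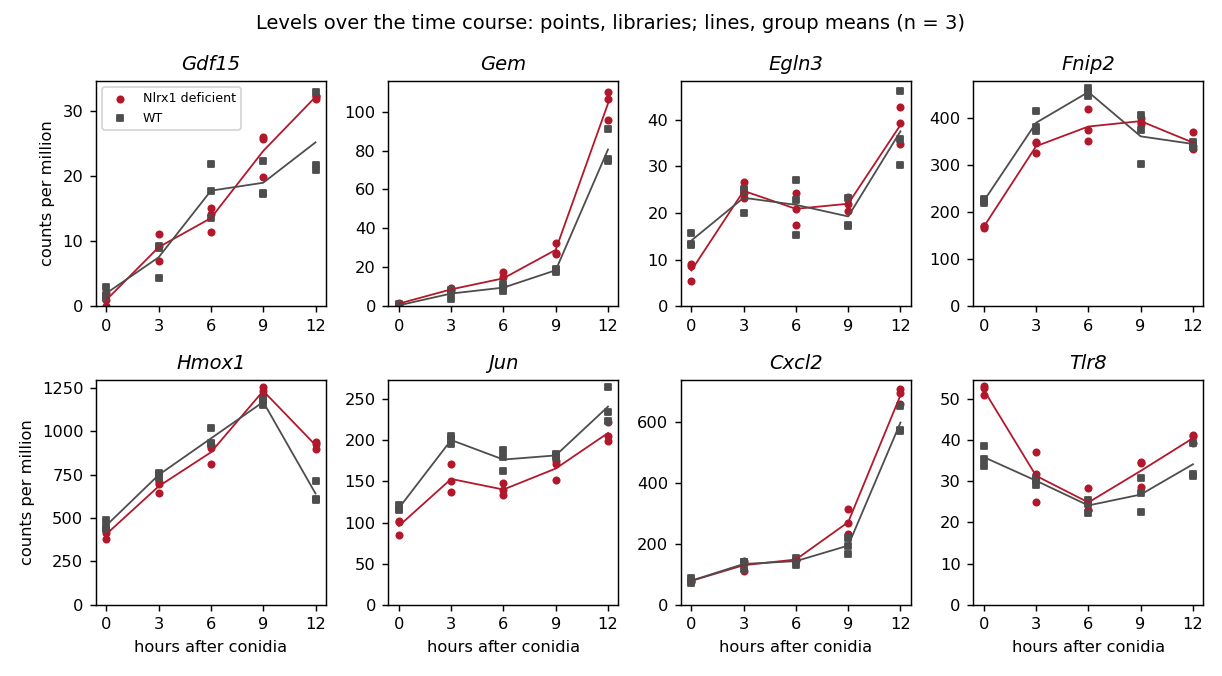
CPM in each library (points) and group means (lines, n = 3) at 0, 3, 6, 9 and 12 h for 8 genes, Nlrx1 deficient cells in red and WT cells in grey. Fnip2 is near its later levels by 3 h, whereas Gem and Cxcl2 climb mainly between 9 and 12 h.

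The same step in WT cells gave 126 calls (1.02%), 109 rises and 17 falls, from other libraries. Of these 81 were also called in KO, all in the same direction, which is 53.6% of the KO calls and 64.3% of the WT calls. In WT the change had the same sign for 141 of the 151 genes called in KO. A further 70 genes passed in KO and not in WT, but a call in 1 genotype is no test of a difference. The difference between the genotypes in the change from 0 h to 3 h passed for 0 genes by edgeR's test, with 674 genes (5.44%) at an unadjusted p under 0.05, and for 2 genes by DESeq2 (Gm20716 and Gm20560), with 447 at an unadjusted p under 0.05. Gstp2 and Gm20560 came closest (both adjusted p = 0.0907), each with at most 11 counts in any of these 12 libraries. Hmox1 changed by 0.74 ± 0.06 in KO and 0.71 ± 0.06 in WT, a difference of 0.03 ± 0.09, and Slamf7 by 0.85 ± 0.08 in KO and 0.86 ± 0.08 in WT, a difference of -0.02 ± 0.11. Egln3 changed by 1.69 ± 0.22 in KO and 0.73 ± 0.21 in WT, a difference of 0.96 ± 0.31 (unadjusted p = 0.00443), and Epc1, a chromatin factor gene, by 1.03 ± 0.18 and -0.01 ± 0.17, a difference of 1.04 ± 0.25 (unadjusted p = 0.000365). Atg2a changed by 0.85 ± 0.16 in KO and -0.08 ± 0.16 in WT, a difference of 0.93 ± 0.22 (unadjusted p = 0.000337), and Cd86 by 0.20 ± 0.30 and 1.18 ± 0.34, a difference of -0.98 ± 0.45 (unadjusted p = 0.0402). None of these differences passed after adjustment over all genes. The genotypes also differed in composition at both times. Small structural RNAs took 3.62% ± 0.0757 and 3.42% ± 0.0774 of counts in KO at 3 h and 0 h, against 6.58% ± 0.191 and 5.82% ± 0.303 in WT (SD, n = 3), and the part of this in any difference was not tested.

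**Figure D5:**
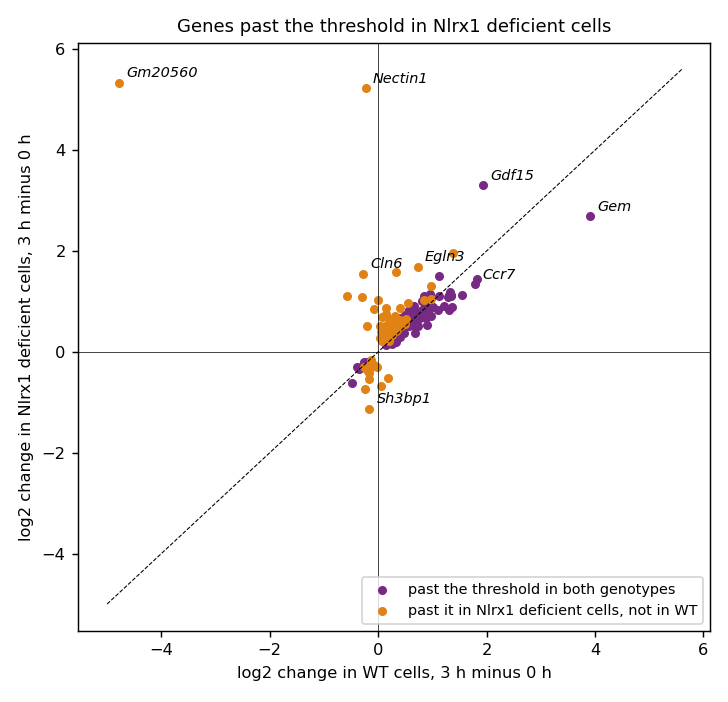
Log2 change from 0 h to 3 h in Nlrx1 deficient cells (vertical) against the same change in WT cells (horizontal) for the 151 genes past the threshold in Nlrx1 deficient cells. The 81 genes past it in both genotypes are purple, the other 70 orange, the dashed line marks equal changes, and 141 of the 151 have the same sign on both axes. The fitted changes of Nectin1 and Gm20560 rest on groups with no count and give no size.

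The authors' deposited table for the same comparison lists 37 genes, 31 higher and 6 lower at 3 h, and all 37 had the same direction here. Of these 25 passed here, which is 67.6% of that list and 16.6% of the 151 calls. In the authors' deposited table Fnip2 has a log2 change of 1.00 with an adjusted p of 2.13e-19, and Hmox1 0.74 with 2.00e-13. The 12 that did not pass here were Ahcyl2, Akap2, Bhlhe41, C330021F23Rik, Clec4e, Csf1, Desi2, Fbxo34, Gm16286, Gpr176, Pakap and Ppp1r15a. Ahcyl2, Fbxo34 and Ppp1r15a passed in the fit of the 6 KO libraries (adjusted p = 0.0238, 0.00376 and 0.0076). Fbxo34, an F-box protein gene, had 2.45, 2.82 and 2.05 CPM in the KO 3 h libraries, against 26.0, 19.5 and 19.4 CPM in the KO 0 h libraries. The 3 libraries at 3 h were all far lower. The gene ran from 1.41 to 31.9 CPM across the other 24 libraries, a range over genotypes and times and not the spread within a group. The change in the fit of all 30 was -3.11 ± 1.02 (adjusted p = 0.207). Akap2 and Pakap overlap on the same strand, where reads can be assigned to either, and their changes had opposite signs here (4.21 ± 1.67 and -6.57 ± 2.94). Pakap held no count in the KO 3 h libraries. Clec4e, the fungal and mycobacterial receptor Mincle, had 99.5, 128 and 124 CPM in KO cells at 3 h and 44.6, 47.2 and 83.9 CPM in KO cells at 0 h. KO 0 h replicate 3 was well above the other 2 of its group, and the change was 1.00 ± 0.43 (adjusted p = 0.428).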

How the data were processed

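Poly(A) RNA of 30 libraries was measured, and the values used are raw read counts per gene in the authors' deposited table, on GRCm38. The submitters' processing notes name Trimmomatic 0.35, HISAT2, StringTie and DESeq2. The sources used here give neither the counting tool nor its strand setting. The authors' deposited comparison tables hold log2 fold changes and p-values, and 12 columns of per-sample values in them were not used. Library totals ran from 1722384 to 3509429 counts. The number of reads per gene limits the precision.

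Counts were scaled by TMM, filtered with filterByExpr (minimum count 10; 42139 of 54532 genes removed, 98.66% of counts kept) and fitted over all 30 libraries with 1 coefficient per group by edgeR 4.0.16 in R 4.3.3, with the robust quasi-likelihood test. An adjusted p under 0.05 (Benjamini-Hochberg) was the threshold. The fit had 20 residual degrees of freedom and a biological coefficient of variation of 13.7%. Of all IDs, 54495 matched a gene name. Replicates of a group differed by more than sampling noise.

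Named genes were Nlrx1, called genes of at least 5 CPM without overlap (the 15 largest rises, the 10 largest falls and the 10 smallest p), up to 6 called members per gene list, and a set of marker genes named whether or not they passed. The genes of the authors' deposited list were named too, Clec4e among them. Genes outside these rules were chosen after their values were seen, among them Fnip1, Tecpr1, Gabarapl1, Atg2a, Gla, Rilpl2, Nceh1, Lyst and Epc1. The members and lists were chosen with earlier results of these data known. Alternatives were DESeq2 1.42.0, its size factors, no filter, fits of fewer libraries, a replicate block and leaving out each library. Promoters came from RefSeq (GRCm38.p6). The result of 1 gene among the fungal recognition genes is not reported here.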

Additional observations from a re-analysis of the deposited data

How the results depend on the processing

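The 151 calls in KO cells became 60 without a filter on low counts (55 rises and 5 falls) and 27 in the fit of the 6 KO libraries (23 rises and 4 falls), which has fewer samples to estimate the spread. With DESeq2 there were 122 (102 rises and 20 falls, 115 shared), with its size factors 151, and with 1 library left out 103 to 115. No called gene of the 101 that were followed reversed its direction in any of these. Of the 101, 52 passed without the filter, 85 of 98 by DESeq2 and 22 in the fit of the 6 libraries. The difference between genotypes, with 0 calls, had 2 by DESeq2, 1 in the fit of the 12 libraries at 0 h and 3 h (Lars2) and 0 to 2 with 1 library left out. Those were Sh3bp1 and Tmem164 without KO 3 h replicate 2, Hagh without WT 3 h replicate 1, and Gm8464 and Gm20560 without WT 0 h replicate 3. The cause was not tested. The titles number the replicates 1 to 3 in every group. Deviations of same-numbered KO 3 h and KO 0 h libraries correlated at 0.0083, 0.0747 and -0.062, so the numbers were not taken to pair them. A replicate block gave 147 calls, 142 of them shared, and 94 of the 101 passed. With 1973232 to 2803142 counts a library, genes of few counts had wide errors, such as Il6 at 0.545 CPM at 3 h and 0.544 CPM at 0 h in KO cells (log2 change -0.12 ± 1.14).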
